A study of Homo sapiens with 3 samples.

Results

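HepG2/metR cells, a metformin-resistant line selected from the human hepatocellular carcinoma line HepG2, were compared with and without oxamate across 12210 of the 25270 gene symbols measured, in 2 of the 3 RNA-seq libraries of the series. The genes compared were those with a mean of at least 1 FPKM (fragments scaled to the length of the transcript and the size of the library) over the 3 libraries, a choice that did not use the difference between the 2 libraries. The HepG2/metR cells had survived more than 5 months of metformin, and the treated culture then received 40 mM oxamate for 24 h, added once the cells had partly covered the dish. Parental HepG2 cells, which received neither agent, gave the third library. All 3 cultures were grown in the same serum-containing medium. The study asked which genes respond to lactate, and the oxamate culture was its test of lowered lactate production in a cell model with high glycolysis. Each condition had 1 library (n = 1), so no difference below has a replicate check and no p-value is given.

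Oxamate is a pyruvate analog that inhibits lactate dehydrogenase, the enzyme that converts pyruvate to lactate and returns NADH to NAD+ so that glycolysis can continue. Dividing cells copy their DNA in S phase with genes that E2F transcription factors switch on, and separate the copies in mitosis with genes that carry a cell cycle homology region read by the DREAM complex and MYBL2-FOXM1. Cells short of amino acids or with misfolded protein in the endoplasmic reticulum raise ATF4, a transcription factor that drives amino acid synthesis, amino acid transport and tRNA charging.

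The liver origin given in the labels showed in the parental library and hardly in the pair compared here. The 14 hepatocyte markers, all at 1 FPKM or more in parental HepG2, summed to 35763 FPKM there, to 14.3 FPKM in untreated HepG2/metR and to 11.5 FPKM with oxamate. Albumin (ALB) was at 9206 FPKM in parental cells, 0.747 untreated and 0.617 with oxamate, and transthyretin (TTR) was at 302 FPKM and then listed at 0 in both HepG2/metR libraries. Whether the HepG2/metR cells are the same line as the parental culture was not tested. Markers of other cell types were mostly at or near 0. Of 9 fibroblast markers, 3 reached 1 FPKM in either HepG2/metR library, with THY1 at 53.3 and 48.5 FPKM, and the defining markers PDGFRA and COL1A2 were below 0.1 FPKM. PECAM1 and CDH5 for endothelium, PTPRC and CD3E for leukocytes, and KRT5 and TP63 for keratinocytes were below 0.1 FPKM in both. The summed level of the 8 endothelial markers was 2.54 FPKM untreated and 3.26 with oxamate, that of the 8 leukocyte markers 43.9 and 32.0, nearly all of it CD68, and that of the 7 keratinocyte markers 59.5 and 39.9, mostly SFN. Read numbers are not known for these libraries. Among values under 0.15 FPKM, which stand for very few fragments, the most frequent ratio of untreated to oxamate values was 1.02, found in 285 of 1636 such pairs.

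The promoters of 7 genes are shown, as those of genes with large changes in the programs described below. RRM2, AURKB, CHAC1 and FN1 had the largest changes in the replication, mitosis, ATF4 and mesenchymal gene lists. MCM7, CDCA8 and HSPA5 were added after their values were seen. MCM7 had the largest fall among origin licensing genes with an E2F site, and HSPA5 among endoplasmic reticulum chaperones. CDCA8 (log2 change -0.70) is a spindle gene with both a cell cycle homology region and a CCAAT box. KIFC1 (-0.76), also a spindle gene with both, fell further and is not shown. Each run is the 250 bases before the first listed RefSeq start, 5′ to 3′ on the gene's own strand, in GRCh38.p14. This build differs from the hg19 that the submitters' processing notes name, and the deposited values hold no coordinates. Capitals mark the motifs named for each gene, on either strand, so that ATTGG is a CCAAT box read from the other strand. The CCAAT box of FN1 is a motif that 22.2% of mesenchymal promoters held, against 37.1% of all.
RRM2 (chr2:10122489-10122738, plus strand), CCAAT boxes starting at -123, -93 and -66 from the start: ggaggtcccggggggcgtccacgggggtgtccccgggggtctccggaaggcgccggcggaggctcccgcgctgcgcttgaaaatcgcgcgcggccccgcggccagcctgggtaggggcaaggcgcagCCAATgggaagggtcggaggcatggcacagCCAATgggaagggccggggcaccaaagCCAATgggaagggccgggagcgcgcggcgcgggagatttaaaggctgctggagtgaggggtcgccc
MCM7 (chr7:100101398-100101647, minus strand), CCAAT boxes at -95 and -51 and an E2F site at -9: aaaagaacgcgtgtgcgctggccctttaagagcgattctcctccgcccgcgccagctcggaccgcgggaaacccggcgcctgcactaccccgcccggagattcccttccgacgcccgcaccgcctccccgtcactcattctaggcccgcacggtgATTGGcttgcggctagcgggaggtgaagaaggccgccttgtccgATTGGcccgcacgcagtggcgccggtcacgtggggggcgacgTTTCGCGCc
AURKB (chr17:8210226-8210475, minus strand), a CCAAT box at -153: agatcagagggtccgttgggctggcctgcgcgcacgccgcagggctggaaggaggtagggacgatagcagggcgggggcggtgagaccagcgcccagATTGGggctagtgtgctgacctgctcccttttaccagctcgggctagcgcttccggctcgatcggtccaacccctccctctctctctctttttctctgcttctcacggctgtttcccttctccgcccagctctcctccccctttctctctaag
CDCA8 (chr1:37692266-37692515, plus strand), CCAAT boxes at -115, -75 and -18 and a cell cycle homology region at -23, the last pair overlapping: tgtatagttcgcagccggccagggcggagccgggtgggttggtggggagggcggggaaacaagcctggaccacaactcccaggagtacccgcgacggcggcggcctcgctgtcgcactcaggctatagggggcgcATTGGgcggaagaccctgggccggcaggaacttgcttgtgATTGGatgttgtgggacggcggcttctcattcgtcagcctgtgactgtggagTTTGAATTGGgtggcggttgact
CHAC1 (chr15:40953221-40953470, plus strand), an ATF4 site at -209 and CCAAT boxes at -167, -107 and -80: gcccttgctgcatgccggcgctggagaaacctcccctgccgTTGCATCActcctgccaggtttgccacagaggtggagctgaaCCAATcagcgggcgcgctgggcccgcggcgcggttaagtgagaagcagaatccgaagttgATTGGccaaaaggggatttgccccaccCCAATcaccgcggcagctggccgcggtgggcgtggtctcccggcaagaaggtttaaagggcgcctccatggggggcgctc
HSPA5 (chr9:125241344-125241593, minus strand), CCAAT boxes at -216, -188, -99 and -66: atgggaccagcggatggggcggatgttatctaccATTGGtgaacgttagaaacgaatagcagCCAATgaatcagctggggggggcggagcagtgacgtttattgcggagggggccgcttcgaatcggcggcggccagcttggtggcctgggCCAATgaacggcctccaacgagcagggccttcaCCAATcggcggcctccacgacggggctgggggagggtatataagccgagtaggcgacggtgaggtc
FN1 (chr2:215436069-215436318, minus strand), a CCAAT box at -162: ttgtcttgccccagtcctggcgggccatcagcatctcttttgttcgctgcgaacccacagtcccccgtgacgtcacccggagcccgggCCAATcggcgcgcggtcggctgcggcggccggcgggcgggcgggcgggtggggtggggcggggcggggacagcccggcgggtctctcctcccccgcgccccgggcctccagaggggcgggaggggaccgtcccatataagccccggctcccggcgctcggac

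Oxamate moved genes in both directions in similar number. At least 1.5-fold on the deposited log2(FPKM + 1) scale, 466 genes (3.82% of the 12210) were lower and 525 (4.3%) were higher, and only these are said to have fallen or risen below. At least 2-fold, 64 were lower and 66 higher. Because the parental library enters the filter, some genes kept were scarce in the pair compared. In the lowest of 10 groups by level, with a median of 0.444 FPKM, 0.901% fell and 2.21% rose, which lowers the shares over all genes. In the most abundant group, 11.2% fell and 1.06% rose. Rises were most frequent among scarce genes, at 9.01% in the group with a median of 3.98 FPKM. Counts in the lists below are to be read against 3.82% falls and 4.3% rises over all genes. The central 90% of genes lay between -0.522 and 0.558 around a median of 0.0211. The genes that fell were abundant, with a median of 32.7 FPKM in the untreated library, and those that rose were scarce, with a median of 3.63 FPKM. The total of all 25270 gene symbols was 534646 FPKM untreated and 473773 FPKM with oxamate. When both libraries were set to the same total, the count became 193 lower and 1196 higher. That scaling moved the median of all genes from 0.0211 to 0.17, so list medians are to be read against the median of all genes. In RNA from a whole culture, fewer cells in a given state and less RNA per cell cannot be told apart.

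The largest falls, among genes with a mean of at least 5 FPKM in the pair, were led by stress genes. CHAC1, which breaks down glutathione, was at 0.0304 FPKM in parental cells, 21.6 in HepG2/metR and 3.702 with oxamate (log2 change -2.27). DDIT4, an inhibitor of mTORC1, was at 35.8, 26.5 and 4.94 FPKM (log2 change -2.21). Next in size came the readthrough transcript NME1-NME2 (-1.73), whose reads cannot be told from those of NME1 and NME2, the stress factor DDIT3 (-1.46), the fatty acid desaturase SCD (-1.43), the ribonucleotide reductase subunit RRM2 (-1.35), the mitochondrial carrier UCP2 (-1.34), the mitotic kinase AURKB (-1.28), the urokinase gene PLAU (-1.26), the keratin-associated protein gene KRTAP2-3 (-1.23), the replication factor GINS2 (-1.16) and the sterol sensor INSIG1 (-1.13), all as log2 changes. In 7 of these 12 genes the oxamate value was below the parental value as well.

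The 12 largest rises held 3 zinc finger genes. ZNF114 was at 13.6 FPKM in parental cells, 10.3 in HepG2/metR and 33.8 with oxamate (log2 change 1.63), and ZNF121 was at 6.697, 10.3 and 31.9 FPKM (log2 change 1.55). OLR1, a scavenger receptor for oxidized lipoprotein, was listed at 0 in parental cells and was at 8.89 and 26.04 FPKM in the pair (log2 change 1.45). IL7R, the interleukin 7 receptor, rose from 14.9 to 39.3 FPKM (log2 change 1.34), and SLC5A3, a sodium-coupled myo-inositol transporter, from 9.63 to 23.8 FPKM (log2 change 1.22). The others were LOC645638 (1.59), the deubiquitinase YOD1 (1.40), the TEAD cofactor VGLL3 (1.17), CRHR1-IT1 (1.15), the ribosomal protein pseudogene RPL13AP20 (1.15), which can share reads with RPL13A, ZNF284 (1.15) and IGFN1 (1.14). All 12 ended above their level in parental cells.

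DNA replication was the program with the highest share of falls. Of its 94 genes, 43 fell (45.7%, against 3.82% of all genes), 0 rose and 87 were lower, with a median log2 change of -0.51. Origin licensing and firing genes load and start the replicative helicase, and 15 of 30 fell with a median of -0.56. The 6 core helicase genes all fell, from MCM7 at 119 to 57.7 FPKM (log2 change -1.03), MCM2 (-1.01), MCM5 (-0.995) and MCM3 (-0.93) to MCM4 (-0.81) and MCM6 (-0.81). So did GINS2 at 33.2 to 14.3 FPKM (log2 change -1.16), CDC45 at 20.7 to 9.42 FPKM (log2 change -1.06), CDC6 at 47.1 to 24.2 FPKM (log2 change -0.93) and the licensing inhibitor GMNN at 65.2 to 40.01 FPKM (log2 change -0.69). The origin recognition genes were less uniform, since ORC6 fell (-0.67) while ORC2 was at 21.3 and 24.3 FPKM (log2 change 0.18), the 1 licensing gene above 0.

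At the fork, 11 of 30 genes fell (median -0.49). PCNA, the sliding clamp and the most abundant of them, fell from 224 to 136 FPKM (log2 change -0.72). Of the polymerase subunits, POLD2, of delta, fell from 93.5 to 49.0 FPKM (log2 change -0.92), POLA1, of alpha, fell from 18.5 to 9.198 FPKM (log2 change -0.93) and POLE2, of epsilon, fell from 8.002 to 3.64 FPKM (log2 change -0.96). The catalytic subunit POLD1 was at 24.3 and 20.4 FPKM (log2 change -0.24), short of the 1.5-fold line. Nucleotide supply gave 8 falls among 17 genes (median -0.51). RRM2 fell from 149.6 to 58.03 FPKM (log2 change -1.35), against 113 FPKM in parental cells. TK1, the thymidine salvage kinase, fell from 177 to 84.1 FPKM (log2 change -1.06), and TYMS, the thymidylate synthase gene, fell from 121 to 64.9 FPKM (log2 change -0.89). RRM2B, the reductase subunit that p53 induces, was at 19.9 and 26.2 FPKM (log2 change 0.38), opposite in sign to RRM2.

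The list of replication-coupled chromatin assembly, which also holds architectural and lamin genes, had the lowest median of all 76 lists examined. Its median was -0.64, and 9 of 17 genes fell (52.9%). The abundant architectural protein gene HMGB2 fell from 293 to 151 FPKM (log2 change -0.95) and the lamin gene LMNB1 from 106 to 57.7 FPKM (log2 change -0.87). ASF1B, a histone chaperone, fell from 22.8 to 12.3 FPKM (log2 change -0.84), whereas its paralog ASF1A was at 8.19 and 9.404 FPKM (log2 change 0.18). EZH2, the methyltransferase of histone H3 lysine 27, fell from 24.02 to 14.8 FPKM (log2 change -0.67), and UHRF1, which guides maintenance DNA methylation, fell from 30.4 to 18.8 FPKM (log2 change -0.67). DNMT1, the maintenance methyltransferase itself, was at 41.9 and 29.01 FPKM (log2 change -0.52). Of the 19 replication-dependent histone genes that were kept, 0 fell and HIST1H2AC rose from 7.27 to 16.0 FPKM (log2 change 1.04). Their transcripts lack poly(A) tails, most were below 5 FPKM, and how the libraries selected RNA is not given in the sources used here.

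Mitosis genes followed, with 38 falls, 0 rises and 132 lower values among 143 genes (median -0.42). All 38 spindle and cytokinesis genes were lower, and 14 fell (median -0.53). STMN1, a tubulin-binding protein and the most abundant of them, fell from 496 to 311 FPKM (log2 change -0.67). In the augmin complex, which seeds microtubules within the spindle, HAUS8 fell from 19.6 to 10.7 FPKM (log2 change -0.82) and HAUS1 fell from 48.3 to 29.5 FPKM (log2 change -0.69). In the chromosomal passenger complex, AURKB fell from 77.8 to 31.5 FPKM (log2 change -1.28), BIRC5 fell from 99.4 to 60.1 FPKM (log2 change -0.72) and CDCA8 fell from 54.7 to 33.3 FPKM (log2 change -0.70), while INCENP was at 26.5 and 22.9 FPKM (log2 change -0.20). All 20 mitotic cyclins and kinases were also lower, and 6 fell, among them PLK1 (-0.68), PKMYT1 (-0.80) and CDC25C (-0.65). The most abundant of this group, CCNB1, was at 179 and 124 FPKM (log2 change -0.53), and CDK1 at 123 and 95.4 FPKM (-0.36).

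At the kinetochore and centromere, 11 of 42 genes fell and 40 were lower (median -0.43). In the inner kinetochore network CENPU fell from 24.2 to 10.5 FPKM (log2 change -1.13) and CENPM fell from 33.2 to 15.8 FPKM (log2 change -1.02). ZWINT, the most abundant, fell from 128 to 72.6 FPKM (log2 change -0.81), and MAD2L1, a spindle checkpoint gene, fell from 60.1 to 33.8 FPKM (log2 change -0.81). Some structural genes stood near 0, since CENPT was at 12.7 and 13.6 FPKM (0.10) and MIS12 was close to level at 27.6 and 25.99 FPKM (-0.09). In the anaphase-promoting complex list, 3 of the 4 falls were regulators: CDC20, an activator of the complex, fell from 156 to 76.3 FPKM (log2 change -1.03), PTTG1, the securin gene, fell from 312 to 185 FPKM (log2 change -0.75), and FBXO5, an inhibitor, fell from 17.8 to 9.82 FPKM (log2 change -0.80). Of the core subunits, ANAPC15 fell (-0.71) and ANAPC2 stood highest at 0.25. Condensin and cohesin gave 3 falls among 22 genes (13.6%, median -0.28), all 3 in condensin: NCAPD3 (-0.76), NCAPH (-0.62) and NCAPG (-0.61). The cohesin loader NIPBL was at 9.05 and 10.9 FPKM (0.25). Tubulins, which form the microtubules of the spindle and of resting cells, fell at 6 of 14 (42.9%, median -0.35). TUBA1B, the most abundant, fell from 1408 to 659 FPKM (log2 change -1.09), and TUBA1C fell from 608 to 314 FPKM (log2 change -0.95). TUBB3 (-0.83), TUBB (-0.72), TUBB6 (-0.64) and TUBB4B (-0.59) fell as well, and TUBG2, a gamma-tubulin gene, was at 8.75 and 11.1 FPKM (log2 change 0.31). Tubulin genes are close paralogs that can share reads.

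Cell cycle control genes fell at 9 of 40 (22.5%, against 3.82% of all genes). Among G1 and S cyclins and kinases, 5 of 12 fell (41.7%). CKS1B, a CDK subunit that SKP2 needs, fell from 175 to 85.3 FPKM (log2 change -1.03), and CDK4 fell from 102 to 63.1 FPKM (log2 change -0.69). CCNE1, a cyclin that starts S phase, fell from 15.6 to 9.66 FPKM (log2 change -0.64), while CDK6 was at 13.1 and 17.6 FPKM (0.40). Of the E2F, RB and DREAM factors, 3 of 21 fell (14.3%). MYBL2 fell from 35.6 to 18.8 FPKM (log2 change -0.89), E2F1 fell from 29.1 to 17.9 FPKM (log2 change -0.67) and E2F2 fell from 2.17 to 1.04 FPKM (log2 change -0.64). The value for E2F1 was short of 1.5-fold when both libraries had the same total (log2 change -0.51). E2F5 and the RB-family repressor RBL2 lay on the other side of 0, at 0.50 and 0.23. Of 7 genes listed as CDK inhibitors by name, only CDKN3 fell, from 54.8 to 27.8 FPKM (log2 change -0.95). Its name does not make it an inhibitor of the p21 kind. CDKN1A, the p21 gene, was at 89.2 and 95.7 FPKM (0.10). Homologous recombination and Fanconi anemia genes gave 8 falls among 29 (27.6%, median -0.35), led by RAD54L (-0.95), EME1 (-0.94), UBE2T (-0.91) and EXO1 (-0.85), and FANCF stood at 0.40. Checkpoint kinases and sensors had a median of -0.02, with H2AFX (-0.76) and WEE1 (-0.62) fallen among 18 (11.1%) and ATM at 0.49.

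Targets of ATF4 and amino acid supply genes fell at 12 of 36 (median -0.49), and 0 rose. Besides CHAC1 and DDIT4, DDIT3 fell from 59.9 to 21.1 FPKM (log2 change -1.46), and SESN2, which senses leucine for mTORC1, fell from 16.5 to 7.56 FPKM (log2 change -1.03). ATF4 itself fell, from 289.9 to 179.9 FPKM (log2 change -0.69), against 279 FPKM in parental cells. The amino acid transporters SLC1A5 (213 to 127 FPKM, log2 change -0.74) and SLC1A4 (-0.62) fell, as did the mitochondrial folate enzyme MTHFD2 at 179 to 105 FPKM (log2 change -0.76). ASNS, the asparagine synthetase gene, was at 89.6 and 62.1 FPKM (log2 change -0.52). Not all members were lower, since the transporter SLC38A2 was at 100.0 and 112 FPKM (0.16) and PPP1R15A at 57.02 and 59.6 FPKM (0.06). The serine synthesis enzyme PSAT1, at 191 FPKM in parental cells, was at 0.0532 and 0.129 FPKM in the pair.

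All 23 cytosolic aminoacyl-tRNA synthetase genes were lower, and 6 fell (median -0.33). These were YARS (106 to 59.6 FPKM, log2 change -0.82), MARS (-0.71), CARS (-0.66), GARS (-0.65), EEF1E1 (-0.64) and FARSB (-0.63). The most abundant of the list, SARS, was at 169 and 126 FPKM (-0.42), and QARS stood closest to 0 at -0.01. Endoplasmic reticulum chaperones fell at 4 of 25 (16%, median -0.43). HSPA5, the chaperone BiP, fell from 280.4 to 147 FPKM (log2 change -0.93), and CALR, the calcium-binding chaperone calreticulin, fell from 586 to 342 FPKM (log2 change -0.78). HSP90B1, the most abundant, was at 805 and 562 FPKM (-0.52). The stress sensors were not lower to the same degree: ERN1 was at 1.89 and 2.88 FPKM (0.42) and EIF2AK3 at 3.35 and 3.94 FPKM (0.18). DNAJB9 stood at 0.44, the highest of the list.

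The target of oxamate changed less than 1.5-fold. LDHA was at 642 FPKM in parental cells, 1150.2 in HepG2/metR and 823 with oxamate (log2 change -0.48), and LDHB at 0.298, 983 and 712 FPKM (-0.46). Of the lactate transporters, SLC16A3 (MCT4) fell from 215 to 119 FPKM (log2 change -0.85) and SLC16A1 (MCT1) was at 68.4 and 54.2 FPKM (-0.33). Glycolysis gave 7 falls and 1 rise among 22 genes (median -0.43). All 7 falls lay between the aldolase and enolase steps, among them PGAM1 (-0.77), PGK1 (-0.73), ENO1 (-0.70) and the most abundant gene, GAPDH at 4303 to 2719.7 FPKM (log2 change -0.66). The phosphofructokinase genes PFKP (-0.07) and PFKM (-0.01) and the hexokinase HK1 (-0.13), all of which were below 5 FPKM in parental cells, were near 0. PFKFB2, whose product makes fructose 2,6-bisphosphate, rose from 4.04 to 6.73 FPKM (log2 change 0.62), and the glucose transporter SLC2A3 was at 4.82 and 7.41 FPKM (0.53).

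Lipid genes fell in part. Cholesterol synthesis and uptake gave 6 falls among 25 genes (median -0.31). INSIG1 fell from 14.4 to 6.002 FPKM (log2 change -1.13). FDPS, which acts early in sterol synthesis, fell from 131 to 74.03 FPKM (log2 change -0.81). In fatty acid synthesis SCD fell from 20.7 to 7.04 FPKM (log2 change -1.43) and its regulator SREBF1 from 10.4 to 6.29 FPKM (log2 change -0.64), against 321 and 15.3 FPKM in parental cells, while the list median was -0.06. ANGPTL4, a lipoprotein lipase inhibitor, fell from 9.36 to 3.82 FPKM (log2 change -1.10) among fatty acid oxidation and PPAR targets (median -0.10). The TCA cycle and pyruvate dehydrogenase list had 3 falls and 1 rise among 31: the kinases PDK1 (-0.71) and PDK3 (-0.64) and PCK2 (-0.72) fell, and the opposing phosphatase PDP2 rose from 7.31 to 13.6 FPKM (log2 change 0.82). Hypoxia-inducible genes gave 4 falls among 24 (16.7%, against 3.82% of all genes) and a median of -0.07. DDIT4, ANGPTL4, PDK1 and BNIP3 (109.7 to 70.9 FPKM, log2 change -0.62) made up those falls, and VEGFA (-0.41), P4HA1 (-0.18) and NDRG1 (0.53) did not pass.

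Some genes for making ribosomes and splicing RNA also fell. Ribosome biogenesis factors fell at 5 of 40 (12.5%, against 3.82% of all genes, median -0.30). Among them were NOP56 at 193 to 99.9 FPKM (log2 change -0.95), MRTO4 (-0.73), DKC1 (-0.70) and the most abundant, NCL (704 to 451 FPKM, log2 change -0.64). MYC, which drives such genes, fell from 74.7 to 46.7 FPKM (log2 change -0.67), and its antagonist MXD4 rose from 2.81 to 5.12 FPKM (log2 change 0.68). Splicing factors fell at 7 of 38 (18.4%, median -0.36), and 5 of the 7 were Sm protein genes of the spliceosome, SNRPD2 (539.7 to 318 FPKM, log2 change -0.76), SNRPD1 (-0.70), SNRPG (-0.65), SNRPB (-0.62) and SNRPF (-0.59). Both lists are abundant, and against genes of like length and level the median was -0.17 for ribosome biogenesis and -0.18 for splicing. Of 84 genes named as cytosolic ribosomal proteins, 2 fell and the median was -0.22. They made up 25.4% of all FPKM untreated and 25.1% with oxamate. Among translation factors, EIF5A fell from 748 to 400.4 FPKM (log2 change -0.90), EIF4EBP1 from 51.7 to 32.3 FPKM (log2 change -0.66), and the helicase gene EIF4A2 rose from 105 to 183 FPKM (log2 change 0.80), opposite to its paralog EIF4A1 at -0.49.

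Growth-signal and inflammatory genes showed a few large falls. Of the immediate-early genes, 4 of 20 fell (20%, against 3.82% of all genes). EGR1 was at 6.28 FPKM in parental cells, 5.496 untreated and 0.755 with oxamate (log2 change -1.89). FOSL1, an AP-1 subunit, fell from 192 to 115 FPKM (log2 change -0.74), against 11.5 FPKM in parental cells, and IER2 fell from 14.2 to 7.78 FPKM (log2 change -0.79). JUN was at 48.3 and 45.2 FPKM (-0.09), and the ERK phosphatase DUSP4 rose from 1.58 to 3.05 FPKM (log2 change 0.65). Among NF-kB targets and cytokines, CXCL2 fell from 5.398 to 1.39 FPKM (log2 change -1.42), CXCL1 fell from 12.3 to 5.099 FPKM (log2 change -1.13) and IL6 fell from 12.7 to 7.34 FPKM (log2 change -0.71), all of which were below 0.1 FPKM in parental cells. These 3 falls were 12.5% of the 24 genes kept. The list median was -0.03, and CCL2 (0.48) and IL18 (0.41) stood highest. The 8 metallothionein genes and regulators kept held 1 fall, MT1F (6.202 to 2.03 FPKM, log2 change -1.25), and 1 rise, the zinc exporter SLC30A1 (10.6 to 19.5 FPKM, log2 change 0.83), and the family's members can share reads.

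Fewer lists had a share of rises at least 3 times the 4.3% of all genes, of which 3.82% fell. Genes that p53 induces gave 5 rises (14.7%) and 2 falls (5.88%) among 34 (median 0.14). TP53INP1 rose from 5.902 to 14.2 FPKM (log2 change 1.14), POLH, a bypass polymerase, rose from 7.21 to 13.2 FPKM (log2 change 0.79), ZMAT3 rose from 5.92 to 10.9 FPKM (log2 change 0.78) and BTG2, an antiproliferative gene, rose from 6.68 to 12.1 FPKM (log2 change 0.77). The falls were SESN2 and PMAIP1 (23.9 to 14.5 FPKM, log2 change -0.68), of which SESN2 is also an ATF4 target. In the list of the glucose sensors MondoA and ChREBP, their partner MLX and their targets, 2 of 10 rose (20%). TXNIP, an inhibitor of glucose uptake, rose from 43.4 to 70.5 FPKM (log2 change 0.69), and ARRDC4 rose from 9.06 to 17.97 FPKM (log2 change 0.91). The list as a whole did not lean upward, with a median of 0.018 against 0.0211 over all genes, and 4 of the 10 were lower. ARRDC3 was at 1.79 and 1.41 FPKM (-0.21). FOXO targets gave 2 rises among 14 (14.3%, median 0.14), TXNIP again and PINK1, a kinase of mitochondrial quality control, at 18.96 to 35.8 FPKM (log2 change 0.88). Against genes of like length and level that median was -0.0051. In the circadian clock, CRY2 (2.15 to 4.04 FPKM, log2 change 0.68) and NR1D2 (8.43 to 14.2 FPKM, log2 change 0.68) rose, and BHLHE40 fell from 3.67 to 1.88 FPKM (log2 change -0.70). Rises were 14.3% and falls 7.14% of the 14 genes, whose median was 0.21.

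Matrix and motility genes rose at 8 of 81 (9.88%, against 4.3% of all genes) and fell at 1. Collagens had the highest median of the lists with at least 5 kept genes, 0.41, with 3 of 15 risen. These were scarce. COL5A1 rose from 1.93 to 4.46 FPKM (log2 change 0.90), COL7A1 rose from 0.892 to 2.14 FPKM (log2 change 0.73) and COL4A5 rose from 5.09 to 8.39 FPKM (log2 change 0.62). The most abundant, COL4A2, was at 104 and 90.9 FPKM (-0.19), and COL4A1, which lies beside it in the genome, at 52.7 and 38.9 FPKM (-0.43). The collagen transcripts are long, with a median of 6586 bases. Against genes of like length the median was 0.20, and 1 of the 15 was at least 1.5-fold higher. Fibronectin (FN1) was at 1503 FPKM in parental cells, 45.7 untreated and 93.7 with oxamate (log2 change 1.02). SNAI2, a repressor of epithelial genes, rose from 6.48 to 12.6 FPKM (log2 change 0.86), and S100A4 rose from 1.29 to 3.41 FPKM (log2 change 0.94). The intermediate filament gene VIM was at 1576 and 1139.8 FPKM (-0.47) and AXL at 231 and 215 FPKM (-0.11), so the list of mesenchymal markers (median 0.11) was split. Of the fibroblast markers, LUM (3.25 to 6.69 FPKM, log2 change 0.86) and PDGFRB (3.66 to 7.26 FPKM, log2 change 0.83) rose while the summed level of all 9 was 61.1 and 63.8 FPKM. Their part in the matrix result was not tested. YAP and TEAD targets gave 2 rises among 21 (9.52%), ANKRD1 at 177 to 337 FPKM (log2 change 0.92) and LATS2 (0.74), with CYR61 at 679.8 and 547 FPKM (-0.31). In the urokinase and metalloproteinase list PLAU fell from 107 to 44.4 FPKM (log2 change -1.26), and its receptor PLAUR was at 45.6 and 31.7 FPKM (-0.51).

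Zinc finger genes held the most rises of the lists examined. Of 369 genes with a ZNF symbol, many of which encode repressors, 37 rose (10.0%, against 4.3% of all genes) and 1 fell. Of the 369, 291 were higher and 70 lower, and the median was 0.21. These genes were scarce, with a median of 3.63 FPKM untreated and 4.62 with oxamate. In the level groups of all genes with medians of 3.98 and 6.13 FPKM, 9.01% and 6.63% rose, so 4.3% understates the share at that level. Against genes of like length, 25 of the 369 were at least 1.5-fold higher. The zinc finger gene that fell was ZNF367 (8.18 to 4.58 FPKM, log2 change -0.72). After ZNF114 and ZNF121, the largest rises were ZNF852 (1.499 to 6.04 FPKM, log2 change 1.49), ZNF221 (0.9299 to 3.51 FPKM, log2 change 1.22) and ZNF284 (3.38 to 8.71 FPKM, log2 change 1.15). Among 155 symbol families with at least 10 genes, a view that no chosen list fixes, MCM stood lowest at -0.81 and next came the family of symbols that begin with H and a digit (-0.42), which holds pseudogenes. Mitochondrial import (TIMM, -0.39), the RNA exosome (EXOSC, -0.36), serine- and arginine-rich splicing factors (SRSF, -0.36) and the nuclear pore (NUP, -0.34) followed, led by TIMM10 (226 to 137 FPKM, log2 change -0.72), EXOSC8 (32.4 to 18.4 FPKM, log2 change -0.79), SRSF2 (-0.66) and NUP37 (53.4 to 31.4 FPKM, log2 change -0.75). At the other end were the Golgi matrix genes (GOLGA, 0.38), the zinc finger family ZSCAN (0.33), the sulfotransferases (CHST, 0.32), the ubiquitin ligase adaptors KLHL (0.32) and FBXL (0.29), the ataxins (ATXN, 0.28) and the zinc finger family ZBTB (0.28). KLHL11 rose from 2.36 to 6.61 FPKM (log2 change 1.18), ZBTB39 rose from 4.05 to 8.55 FPKM (log2 change 0.92) and GOLGA8A rose from 16.8 to 26.7 FPKM (log2 change 0.64). GOLGA8A and GOLGA8B are near copies, and their reads may be shared.

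Other lists are to be read against 3.82% falls and 4.3% rises over all genes. Solute carrier genes gave 7 falls (3.74%) and 8 rises (4.28%) among 187 (median 0.03). Each list named below held 3 or fewer called genes. Complex I gave 1 fall among 38 (2.63%, median -0.19) and complexes III to V 3 among 35 (8.57%, -0.32), the latter led by ATP5G1 at 483 to 291 FPKM (log2 change -0.73). Proteasome subunits fell at 2 of 37 (5.41%), although 36 were lower (-0.33). Mitochondrial ribosomal proteins fell at 3 of 77 (3.9%, -0.20). Lysosome and autophagy genes had 0 falls and 1 rise among 46 (2.17%, 0.12), the transcription factor MITF at 3.64 to 6.39 FPKM (log2 change 0.67). Intraflagellar transport and Bardet-Biedl genes, which build cilia, had 3 rises among 29 (10.3%, 0.11): BBS2 (13.05 to 21.6 FPKM, log2 change 0.68), BBS10 (0.66) and IFT27 (0.63). Among NRF2 targets 2 of 26 rose (7.69%), OSGIN1 at 7.58 to 17.3 FPKM (log2 change 1.09) and ABCC2 (0.84), while HMOX1 was at 15.8 and 11.2 FPKM (-0.47). Interferon-stimulated genes (0.06), MHC class I genes (-0.05) and Notch genes (0.11) held 1, 0 and 0 called genes. Of 11 Wnt targets, 1 rose (9.09%), the secreted inhibitor DKK1 at 127 to 233 FPKM (log2 change 0.87).

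The change with oxamate ran along transcript length and level. From the shortest to the longest of 10 groups of transcripts, the median log2 change went from -0.16 to 0.21, the share of falls from 10.1% to 0.250% and the share of rises from 4.01% to 8.68%. The genes that fell had a median longest transcript of 2275 bases, those that rose 4637 and all genes 3612. By level, the most abundant of 10 groups held 11.2% falls and 1.06% rises. Its summed level fell by 58066 FPKM, where that of all 25270 gene symbols fell by 60873. What these gradients come from was not tested. Against genes of the same length group, 4 of the falling lists moved little, with origin licensing at -0.60, chromatin assembly at -0.62, spindle and cytokinesis at -0.54 and ATF4 targets at -0.48. Against genes of like length and level these 4 stood at -0.62, -0.60, -0.41 and -0.42. Other falling lists shrank by more than 1.5 times in that comparison, with nucleotide supply going from -0.51 to -0.29, endoplasmic reticulum chaperones from -0.43 to -0.22, splicing factors from -0.36 to -0.18, ribosome biogenesis from -0.30 to -0.17 and cholesterol synthesis from -0.31 to -0.20. Against genes of like length, some rising groups moved toward 0, with zinc finger genes at 0.15, collagens at 0.20 and chromatin modifiers at 0.04 against 0.19 before. With level added to length, these 3 groups stood at 0.097, 0.20 and 0.015.

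The letters marked in the promoters above were counted, on either strand, from 250 bases before to 50 after the first listed RefSeq start, for 9913 of 12192 named genes. The E2F sites TTTCGCGC and TTTGGCGC were held by 19.2% and 11.5% of origin licensing promoters, against 1.05% and 1.13% of all genes kept. TTTGAA, the cell cycle homology region, was in 23 of 34 spindle and cytokinesis promoters (67.6%), in 52.9% of mitotic kinase and cyclin promoters and in 9.50% of all. The ATF4 site TGATGNAA was in 6 of 16 tRNA synthetase promoters (37.5%) and 19.4% of ATF4 target promoters, against 1.66%. CCAAT was in 87.0% of endoplasmic reticulum chaperone promoters and 84.2% of cholesterol synthesis promoters, and in 55.9% of all genes that fell, 31.0% of those that rose and 37.1% of all kept. CACGTG, the E-box, was in 40.0% of ribosome biogenesis promoters against 10.4%. Its letters also match the hypoxia response element NACGTG, which was in 45.5% of hypoxia-inducible promoters and 27.2% of all. Lists with no hypoxia theme held it as often, with 54.3% in ribosome biogenesis, 53.3% in nucleotide supply and 45.7% in splicing. The TEAD site GGAATG was in 37.5% of YAP and TEAD target promoters against 10.9%, and the AP-1 site TGANTCA in 7.14% of immediate-early promoters against 4.26%. The AP-1 letters were in 17.6% of NF-kB target and 12.9% of ATF4 target promoters. Holding a motif went with little change across all genes: the median was -0.12 for the 112 genes with TTTGGCGC and between -0.04 and 0.04 for the other motifs. The lists were written partly from such known targets, so a match is a description and not a site of binding.

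Small RNA genes were often called and are uncertain. Of 96 kept, 30 fell and 25 rose, and 35 of these 55 were listed at 0 in the untreated or the oxamate-treated library. SNORD55, SNORD33 and SNORD47, small nucleolar RNA genes that lie in introns of ribosomal protein or noncoding host genes, were listed at 0 untreated and at 1424, 1161 and 1062 FPKM with oxamate. SNORD99 was listed at 754 FPKM untreated and at 0 with oxamate. Noncoding snoRNA host genes gave 2 falls among 17, SNHG15 (39.1 to 18.6 FPKM, log2 change -1.03) and SNHG1 (167 to 109 FPKM, log2 change -0.61), and a median of -0.02. Small RNA genes held 0.928% of all FPKM untreated and 2.25% with oxamate, and no change of one of them is read as more than a listed value. Long intergenic noncoding genes rose at 10 of 67 (14.9%, against 4.3% of all genes) and fell at 3 (median 0.10). LINC00472 rose from 1.05 to 3.31 FPKM (log2 change 1.07) and LINC00176 rose from 0.489 to 1.79 FPKM (log2 change 0.91), both scarce, and the largest fall was that of LINC00263 (4.46 to 2.48 FPKM, log2 change -0.65). LINC00152, the most abundant, was at 265 and 262 FPKM (log2 change -0.01).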

How the data were processed

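RNA was sequenced from parental cells and from metformin-resistant cells with and without oxamate, 1 library each. The authors deposited 1 value per gene symbol on a log2 scale, and its form, log2(FPKM + 1), was inferred from the values. The submitters' processing notes name STAR 2.5.1b, FastQC 0.11.5, Cufflinks 2.2.1 and hg19. The annotation is not given in the sources used here. The number of reads is not known, so no interval is given.

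The deposited log2 values were used unscaled, and a log2 change is oxamate minus untreated. Because of the pseudocount of 1 it understates the change of low genes. A minimum mean of 1 FPKM over the 3 libraries kept 12210 genes, and 1.5-fold was the call. With 1 library a group there was no test. Of the 12210, 18 symbols turned into dates were not used by name. The members and gene lists were chosen with earlier results of these data known. Lists with at least 5 kept genes and a share of falls or rises at least 3 times that of all genes were described in detail, with their most abundant members, up to 4 largest changes and the largest opposite change. The 12 largest falls and rises at a mean of at least 5 FPKM, lactate genes, E2F factors, cell type markers and leaders of symbol families were also named. Other genes named in contrast were chosen after their values were seen. Transcript lengths are the longest in GENCODE 29, found for 11973 genes (98.1%). Promoters came from RefSeq (GRCh38.p14), with the first start used where a gene had several. Some members of the lists are counted in them but are not reported here by name. Alternatives changed the pseudocount, the filter, the scaling, the fold and the small RNA genes, and, added after seeing the data, set each gene against others of like length, or of like length and level. Python 3.11 was used, and the calculation was tested on simulated data.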

Additional observations from a re-analysis of the deposited data

How the results depend on the processing

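The count of genes at least 1.5-fold lower (466) became 286 with a pseudocount of 5, 193 with both libraries at the same total and 64 at 2-fold. The count higher (525) became 1018 with a pseudocount of 0.1, 107 with a pseudocount of 5, 271 with a mean of at least 5 FPKM, 1196 at the same total and 66 at 2-fold. Lists with at least 3 times the share of rises of all genes numbered 8, against 13 with a pseudocount of 5, 16 with a mean of at least 5 FPKM and 4 at the same total. The median of FOXO targets, relative to all genes, turned to -0.0051 against genes of like length and level. Of the list medians relative to all genes, origin licensing ranged from -0.66 to -0.45, chromatin assembly from -0.69 to -0.56, spindle and cytokinesis from -0.57 to -0.41, ATF4 targets from -0.55 to -0.37 and collagens from 0.12 to 0.41. Ranges that crossed 0 were those of hypoxia-inducible genes (-0.14 to 0.015), MondoA and ChREBP genes (-0.019 to 0.042), metallothioneins (-0.015 to 0.23), snoRNA host genes (-0.052 to 0.24), FOXO targets and small RNA genes (-0.17 to 0.16). Of the log2 changes of genes named for size or as lactate genes and E2F1, 311 values kept their direction and side of the threshold and 4 lost the call. Most of these genes were chosen for large changes in the same data, and uncalled ones counted as kept while they stayed uncalled. This tally therefore says little about how stable the calls are. The cause of the shifts in counts and medians was not tested. No paired analysis was possible because each condition had 1 library.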

Other observations

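Each condition was 1 library, so the spread between cultures is unknown and a list's median describes this pair of libraries. Library and treatment cannot be told apart. Oxamate was given at 1 dose and 1 time, and neither lactate nor cell cycle phase is recorded in the values. The parental library lacks oxamate, so a change with oxamate in parental cells was not analysed here. The HepG2/metR pair shares its near absence of hepatocyte transcripts, which limits it as a model of liver cells.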
